A study of Mus musculus with 6 samples.

Results

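Catspere1 and Catspere2 are neighbouring paralogs on mouse chromosome 1 that were looked up by symbol among the 55487 Ensembl genes of the deposited count table, so the set has 2 genes. They were chosen by their read counts in these same libraries, which earlier results had shown to be higher in carriers of a mutant Mmp9 allele than in wild type. Their values by genotype are therefore given as a description, with no test. Tests are given for homozygotes against heterozygotes, for females against males and for the other 46 genes within 1 Mb of the pair, whose values did not enter the choice.

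RNA came from the visual cortex of mice of strain B6.CBA/Tar at postnatal day 28, without any treatment named in the labels. Homozygotes (UTRmut) carried 2 copies of Mmp9em1Iimcb, an allele altered in an untranslated region of the gene for matrix metalloproteinase 9, heterozygotes (het) carried 1 copy and 1 wild type copy, and wild type animals (WT) carried none. Each genotype had 1 female and 1 male library, 6 in all, made from total RNA with a stranded kit. The labels name neither the untranslated region nor the bases changed, and do not say whether a library held 1 animal or whether genotypes shared litters, so the p-values cover only library-to-library spread, which may be technical. For the same reason, a difference at the chromosome 1 locus that goes with litter or with the mixed B6.CBA background cannot be told apart from the Mmp9 allele in any comparison of carriers with WT.

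Total counts were 9500090 to 11966579 per library, and 16119 genes had enough reads to be tested. All 8 markers of cortical neurons and all 6 of glia had at least 10 counts in some library. Mmp9 itself, on chromosome 2, had 8 and 16 counts in the UTRmut female and male, 9 and 9 in het and 4 and 9 in WT, and did not pass in UTRmut against WT (log2 fold 0.86, SE 0.58) or het against WT (0.58, SE 0.61; edgeR, Benjamini-Hochberg adjusted p = 0.999 and 0.9998). One library stood apart for choroid plexus, the secretory tissue of the ventricles: its 6 marker genes summed to 2.43 and 10.4 CPM (counts scaled to a common library size) in UTRmut, 4.58 and 5.04 CPM in het, and 3.66 CPM in the WT female against 49.3 CPM in the WT male, mostly from Ttr.

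The CatSper complex is the calcium channel of the sperm tail, which opens as sperm become capacitated and is needed for the vigorous tail beat that brings them to the egg. Its pore is built from the products of Catsper1 to Catsper4, and the pore is flanked by single-pass proteins with large outer domains named beta, gamma, delta and epsilon. The epsilon subunit is what the Catspere genes are named for. The complex is known from the male germ line.

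Catspere1 (ENSMUSG00000102483) runs from 177808550 to 177962233 on the plus strand of chromosome 1 in GRCm38. Catspere2 (ENSMUSG00000091476) follows after a gap of 21189 bases, from 177983423 to 178172704 on the same strand. The annotations differ on the first gene: GENCODE M21 classes Catspere1 as an unprocessed pseudogene with 1 transcript of 19 exons and 2949 bases, whereas RefSeq classes it as protein-coding. Catspere2 is protein-coding in both, with 3 GENCODE transcripts, and the longest of them has 22 exons and 3494 bases. That longest transcript is annotated as a target of nonsense-mediated decay.

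The 2 genes could be told apart by sequence over most of their length. In an alignment of the Catspere1 transcript with the longest Catspere2 transcript, 2865 bases paired, of which 2695 were identical (94.1%). The differences were not spread evenly. Exons 8 and 9 of Catspere1, which pair with exons 10 and 11 of Catspere2, held 43 and 67 of the 170 differences, at 91.2% and 85.2% identity. Exons 2, 17 and 18 of Catspere1 had no difference from their partners. Stretches of 30 paired bases were searched without gaps, inside an exon of each gene and the coding part of the longest Catspere2 transcript. None of them differed more than that at chr1:177859941-177859970 in exon 8 of Catspere1 and chr1:178098487-178098516 in exon 10 of Catspere2 (GRCm38, plus strand). Capitals mark the 12 bases that differ.
Catspere1: AtGctgacAtAtcccatgACCatAAtTtCT
Catspere2: TtActgacCtTtcccatgGAGatTGtGtTG
At the other extreme, 30 bases of exon 1 were the same in both genes, at chr1:177808564-177808593 in Catspere1 and chr1:177991531-177991560 in Catspere2, and a read that lay only in such a stretch could not be placed.
Both genes: ggtggtggcggcgctgctgttgtggctgag

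The longest run of identical bases between the transcripts was 270. Of all 50-base words in the Catspere1 transcript, 25.1% also occurred in a Catspere2 transcript, and at 100 and 150 bases the share was 11.5% and 4.71%. No word of Catspere1 of 50 or more bases occurred in a transcript of any other gene. Of the Catspere2 words 13.8% at 50 bases and 6.13% at 100 bases were shared with Catspere1, and 1.71% and 0.448% with Desi2, the next gene downstream. The sources used here give neither the read length nor the handling of reads with several matches, so the part of each count that rests on shared sequence is uncertain. RefSeq start windows, 250 bases before to 50 after, numbered 1 for Catspere1 and 2 for Catspere2. The Catspere1 window and the first listed Catspere2 window were 95.8% identical over 288 aligned bases. The other Catspere2 window was not aligned.

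**Figure D1:**
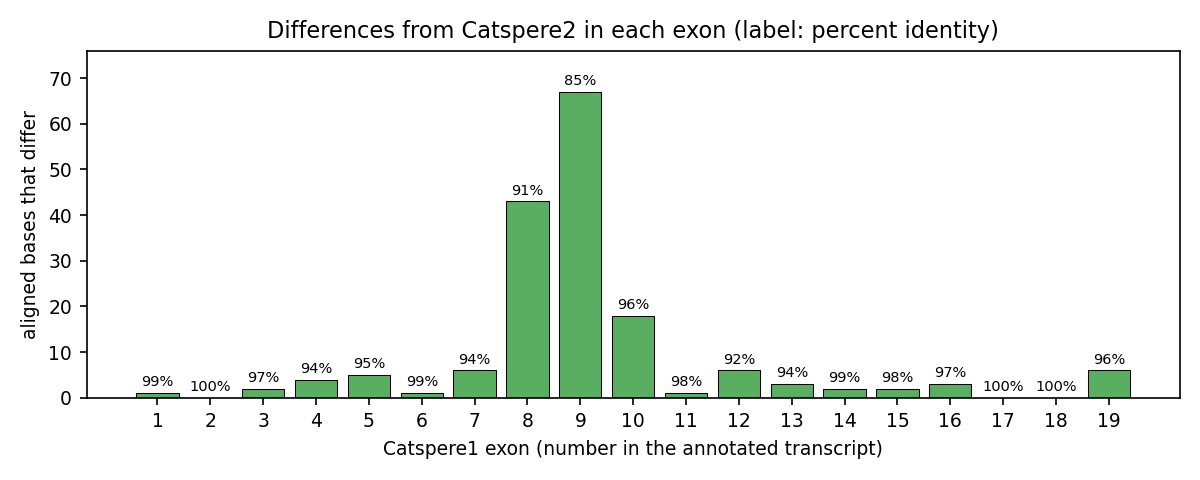
Bars give, for each of the 19 exons of Catspere1 (x axis), the number of aligned bases that differ from Catspere2 (y axis), with the percent identity above each bar. Exons 8 and 9 carry 43 and 67 of the 170 differences, and exons 2, 17 and 18 carry none.

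Catspere1 was read in every carrier library and in neither WT library. It had 52 counts in the UTRmut female and 74 in the UTRmut male, 41 in the het female and 85 in the het male, and 0 in both WT libraries. In CPM scaled by trimmed mean of M-values (TMM), the levels were 4.86 and 6.44 in UTRmut, 4.27 and 7.94 in het, and 0 in WT. The carriers overlapped with each other and not with WT. A count of 0 allows up to 3 counts, or 0.289 CPM in the WT female and 0.259 CPM in the WT male, which covers counting error only. Set against the mean of these 2 floors, the mean Catspere1 level was at least 20.6-fold higher in UTRmut and at least 22.3-fold higher in het. Against the WT floor of the same sex, Catspere1 was at least 16.8-fold and 24.9-fold higher in the UTRmut female and male. The same bound was 14.8-fold and 30.6-fold in the het female and male. Catspere1 was the only gene of the table with 0 counts in both libraries of 1 genotype and at least 10 in each of the other 4, whichever genotype was taken as the one at 0. Since the gene was chosen for its counts in these libraries, this is a description only.

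Catspere2 was read in every library, and at a higher level in carriers. It had 202 and 265 counts in the UTRmut female and male, 158 and 272 in het, and 75 and 90 in WT. These counts correspond to 18.9 and 23.1 CPM in UTRmut, 16.4 and 25.4 CPM in het, and 7.23 and 7.77 CPM in WT. The lowest carrier library, the het female, lay above the higher WT library, and the het libraries enclosed both UTRmut libraries. The mean was 2.79-fold that of WT in both UTRmut and het. For reference, 14.0% of all tested genes had UTRmut libraries wholly above the WT libraries and 13.4% had het libraries wholly above them, so the separation alone is common with 2 libraries a group.

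**Figure D2:**
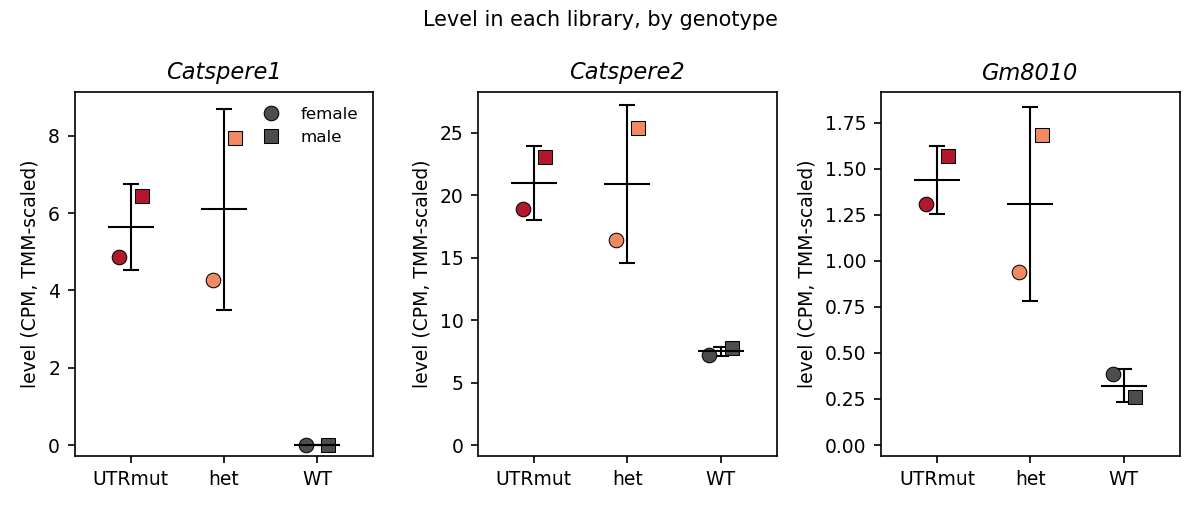
Points are the level of each library in CPM (y axis, TMM-scaled) for Catspere1, Catspere2 and the pseudogene Gm8010, by genotype (x axis), with circles for females and squares for males; horizontal bars and whiskers are the mean and SD of 2 libraries. For Catspere1 both WT points lie at 0, and for Catspere2 the WT points lie at 7.23 and 7.77 CPM, under all 4 carrier points.

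Per kilobase of annotated exon, Catspere2 was the more abundant of the pair in every genotype. Its level was 3.99 ± 0.564 CPM per kb in UTRmut, 3.98 ± 1.20 in het and 1.43 ± 0.0726 in WT (SD, n = 2 each). Catspere1 had 1.92 ± 0.380 CPM per kb in UTRmut and 2.07 ± 0.881 in het. For each gene the levels of UTRmut and het differed by less than their spread, and WT was the lowest. In bulk tissue, fewer cells that make a transcript and less of it per cell cannot be told apart.

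The 2 genes moved together from one carrier library to the next. Catspere1 made up 20.5% of the counts of the pair in the UTRmut female (95% exact binomial interval 15.7 to 26.0), 21.8% in the UTRmut male (17.5 to 26.6), 20.6% in the het female (15.2 to 26.9) and 23.8% in the het male (19.5 to 28.6). The 4 intervals overlapped widely, while the summed level of the pair ranged from 20.7 to 33.3 CPM over the same libraries. In WT the share was 0 of 75 and 0 of 90 counts, which allows up to 4% and 3.33%. The WT level of the pair was 7.50 ± 0.382 CPM, against 26.6 ± 4.09 CPM in UTRmut and 27.0 ± 8.93 CPM in het (SD, n = 2 each).

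The part of Catspere2 that exceeded the WT mean stood in a similar ratio to Catspere1 in the 4 carrier libraries. This comparison was chosen after the values were seen. The excess was 11.4 CPM in the UTRmut female and 15.6 CPM in the UTRmut male, 8.94 CPM in the het female and 17.9 CPM in the het male. Divided by the Catspere1 level of the same library, it came to 2.34 and 2.42 in UTRmut and to 2.10 and 2.26 in het (mean 2.28, SD 0.137 over 4 libraries). Against the WT library of the same sex in place of the WT mean, the ratio was 2.16 to 2.40. The plain ratio of Catspere2 to Catspere1 counts was also similar, at 3.2 to 3.88 (mean 3.63, SD 0.317). These ratios rest on 41 to 85 Catspere1 counts a library and are given without an interval for counting error. Whether reads from shared sequence play a part was not tested.

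**Figure D3:**
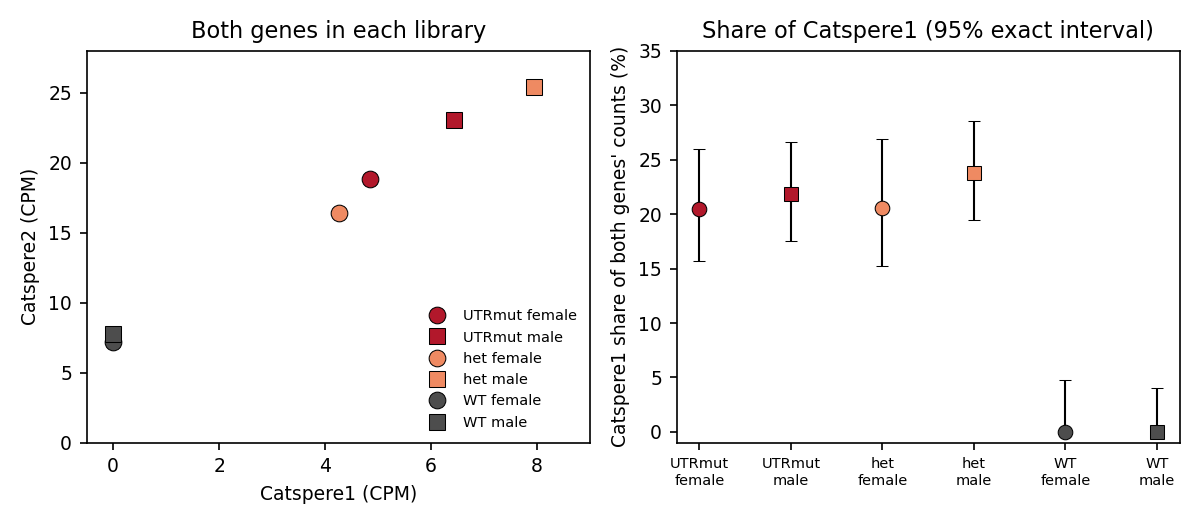
Left, the Catspere2 level (y axis, CPM) against the Catspere1 level (x axis, CPM), 1 point per library; right, the percentage of the counts of both genes that fell on Catspere1 in each library, with 95% exact binomial intervals. The 4 carrier libraries climb together and share a percentage of 20.5 to 23.8, and the 2 WT libraries sit at 0.

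Between the carrier genotypes neither gene differed beyond the spread of the libraries. For UTRmut against het the log2 fold of Catspere1 was -0.12 (SE 0.33, 95% interval -0.83 to 0.59) and that of Catspere2 was -0.00061 (SE 0.19, 95% interval -0.42 to 0.42), both with an adjusted p of 0.9999 (edgeR quasi-likelihood F test, Benjamini-Hochberg over all genes tested). The sign of either value turned when the UTRmut female or the het male was left out, so no direction is given. Over all genes 0.0124% were called in this comparison. With the counts of both genes summed as 1 feature, added after the data were seen, the log2 fold was -0.026 (SE 0.21).

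Both genes were read less in females than in males of the same genotype, and neither difference passed. The log2 fold between the sexes (females over males, genotype held as a factor) was -0.64 (SE 0.26) for Catspere1 and -0.37 (SE 0.13) for Catspere2 (edgeR, Benjamini-Hochberg adjusted p = 0.686 and 0.647, unadjusted p = 0.0338 and 0.0184). The direction was seen in both carrier genotypes for Catspere1, whose WT libraries were at 0 in either sex, and in 3 of 3 genotypes for Catspere2. The gap was wider in het, where the female had 41 and the male 85 counts of Catspere1, than in UTRmut, where they had 52 and 74. In this comparison 0.0372% of all genes were called, and 6.99% had an unadjusted p under 0.05. The 3 females overlapped with the 3 males for both genes, which the gap between carriers and WT that chose them already fixes, so nothing is read from it beside the 6.45% of all genes with females wholly above males and the 5.84% with females wholly below. With the pair summed as 1 feature, the value was -0.41 (SE 0.13, adjusted p = 0.612 by edgeR with Benjamini-Hochberg adjustment).

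Within the Catspere2 gene lies Gm8010, an unprocessed pseudogene on the same strand (178143301 to 178144272), wholly inside an intron of Catspere2 that runs from 178141591 to 178148882. Gm8010 had 14 and 18 counts in UTRmut, 9 and 18 in het, and 4 and 3 in WT. All carrier libraries thus lay above WT, and in CPM the 4 carriers ranked as they did for Catspere2. Of all tested genes 14.0% had UTRmut libraries wholly above WT and 13.4% had het libraries wholly above it. The log2 fold of Gm8010 was 2.13 (SE 0.60) in UTRmut against WT and 2.01 (SE 0.61) in het against WT, the highest among the neighbours in both. Neither value passed (unadjusted p = 0.00323 and 0.00561, adjusted p = 0.999 and 0.9998 by edgeR with Benjamini-Hochberg adjustment). Gm8010 made up 6.48%, 6.36%, 5.39% and 6.21% of the counts of Gm8010 and Catspere2 in the carriers, UTRmut first, and 5.06% and 3.23% in WT, with overlapping 95% exact intervals. Total RNA holds unspliced transcripts, and whether the Gm8010 reads belong to Catspere2 was not tested. A pseudogene on the minus strand inside Catspere2, Gm37313, and the small nuclear RNA gene Gm25312 had 0 counts in every library.

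None of the tested genes around the pair passed in any comparison. Of the 46 other genes within 1 Mb, 10 had no count in any library and 22 were tested. In UTRmut against WT and in het against WT 0 of the 22 passed, where 0.0062% and 0.0124% of all tested genes did (edgeR, Benjamini-Hochberg). Both shares include Catspere1 itself, which was chosen for this gap, so its own call is no test. Catspere2, chosen in the same way, was not called in either comparison, and nothing is read from that. DESeq2 also called 0 of the 22. At an unadjusted p under 0.05 there were 1 higher and 2 lower among the 22 in each comparison. Of all tested genes, 2.71% and 2.37% had such a p. UTRmut libraries lay wholly below WT for 7 of the 22 and wholly above for 4, against 14.6% and 14% of all tested genes. Het libraries lay wholly below WT for 8 and wholly above for 4, against 13.6% and 13.4%. The log2 fold was negative for 16 of the 22 in UTRmut and for 13 in het. The cause was not tested. The median log2 fold of the 22 was -0.08 in UTRmut and -0.05 in het, against -0.0097 and -0.0038 over all genes.

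The flanking gene upstream is Adss, which encodes an adenylosuccinate synthetase of purine synthesis and lies 12 kb before Catspere1. Its level was 63.7 and 62.1 CPM in UTRmut, 58.3 and 62.4 CPM in het, and 68.4 and 73.8 CPM in WT. All carrier libraries lay below both WT libraries, a separation seen for 14.6% (UTRmut) and 13.6% (het) of all tested genes. The log2 fold of Adss was -0.18 (SE 0.10) in UTRmut and -0.24 (SE 0.10) in het, opposite in sign to the pair, and did not pass. The flanking gene downstream is Desi2, a predicted desumoylating peptidase that starts 14.7 kb after Catspere2. It had 33.3 and 32.7 CPM in UTRmut, 33.1 and 31.9 CPM in het, and 33.3 and 33.4 CPM in WT, with log2 folds of -0.01 (SE 0.11) and -0.04 (SE 0.11). UTRmut overlapped with WT, and both het libraries lay just below it. Het libraries lay wholly below WT for 13.6% of all tested genes.

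Farther out, Zbtb18, a transcriptional repressor of neuronal development, had log2 folds of -0.05 (SE 0.08) in UTRmut and -0.06 (SE 0.08) in het. Cox20, which encodes an assembly factor of cytochrome oxidase, had 0.37 (SE 0.23) and 0.20 (SE 0.23). All 11 tested protein-coding neighbours lay between -0.18 and 0.37 in UTRmut and between -0.24 and 0.20 in het. The noncoding neighbours varied more. The antisense gene B230369F24Rik had log2 folds of -0.57 (SE 0.31) and -0.49 (SE 0.31), and the processed pseudogene Gm37246 was the lowest neighbour in UTRmut at -1.69 (SE 0.61), with 5 and 3 counts in UTRmut, 8 and 7 in het and 15 and 11 in WT. Gm37106, of the GENCODE class TEC for transcripts that await experiments, had -1.25 (SE 0.47) in UTRmut, and Gm38300 of the same class had -1.18 (SE 0.52) in het. The 8 tested TEC neighbours had medians of -0.55 in UTRmut and -0.36 in het, where the 1183 tested TEC genes of the table had -0.28 and -0.02. None of these genes passed.

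**Figure D4:**
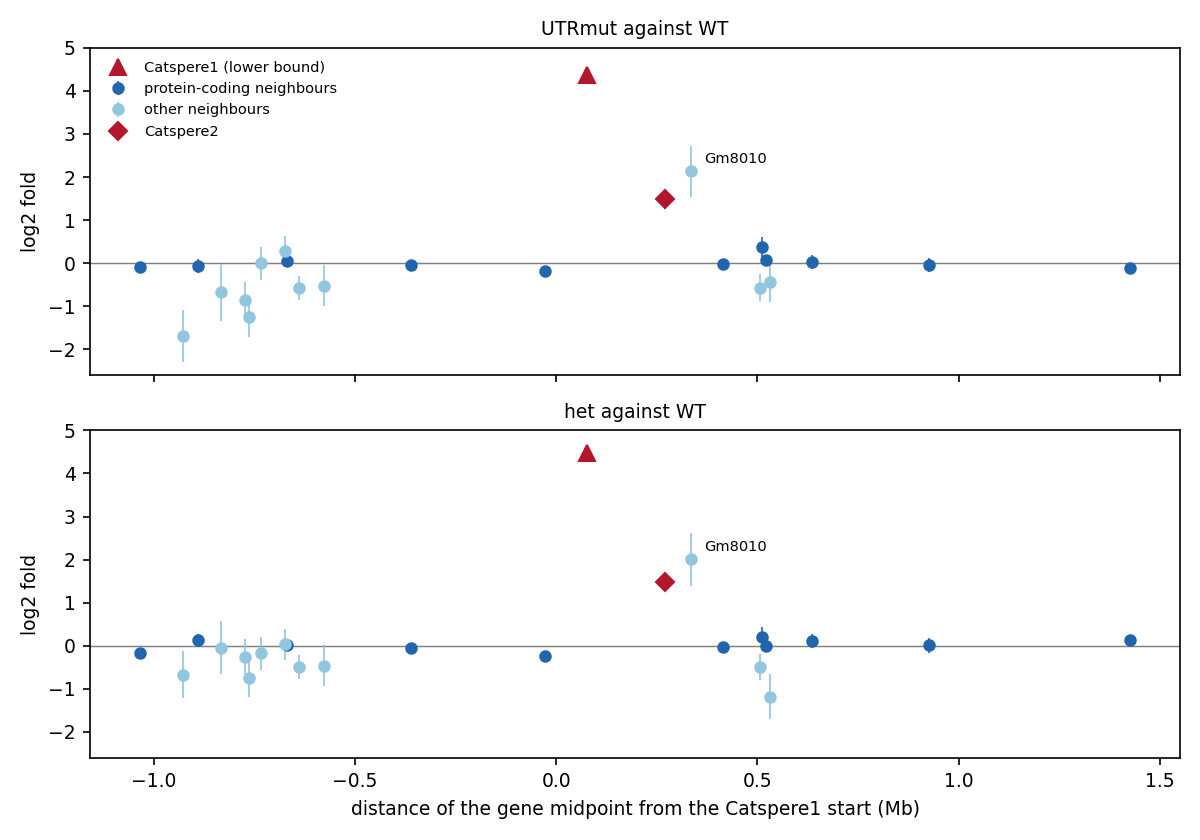
Log2 folds (y axis) of the 22 tested neighbours and the pair in UTRmut against WT (top) and het against WT (bottom), by the distance of the gene's midpoint from the Catspere1 start (x axis, Mb). Whiskers are SE of the neighbours and of Catspere2. Catspere1 is drawn without error, as a triangle that marks a lower bound. Protein-coding neighbours lie between -0.24 and 0.37, while Catspere1, Catspere2 and Gm8010 lie above them.

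The rest of the CatSper complex was scarce, and none of it passed. Of 14 other genes of the channel, 4 had 0 counts in every library: the pore subunits Catsper1 and Catsper4 and the auxiliary subunits Catsperb and Catsperg2. Only 3 reached 10 counts in any library, and 2 were tested, with 0 passing in any comparison (edgeR, Benjamini-Hochberg). Catsper2, a pore subunit, had 34 and 37 counts in UTRmut, 37 and 31 in het and 44 and 52 in WT, so its carriers lay below WT. Its log2 fold was -0.45 (SE 0.29) in UTRmut and -0.38 (SE 0.29) in het. Such a separation is common: 14.6% of all tested genes had UTRmut libraries wholly below WT, and 13.6% had het libraries wholly below it. Catsperz, the small cytosolic zeta subunit, had 10 and 13 counts in UTRmut, 19 and 20 in het and 16 and 20 in WT (log2 folds -0.66, SE 0.43, and 0.23, SE 0.40). Catsperd, the delta subunit, had 11 and 2 counts in UTRmut, 4 and 7 in het and 7 and 2 in WT. The pore subunit Catsper3 had 3 or 4 counts in each library.

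**Figure D5:**
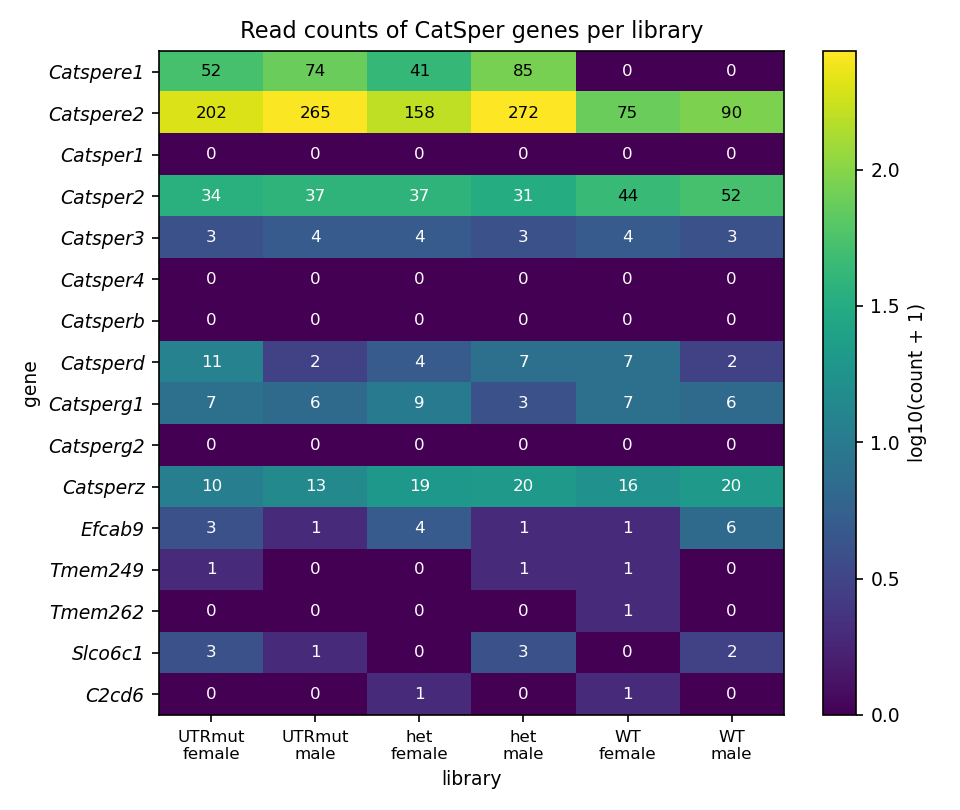
Read counts of Catspere1, Catspere2 and the 14 other CatSper genes (rows) in each library (columns), with colour for log10(count + 1). The rows of Catspere1 and Catspere2 differ between carriers and WT, and Catsper1, Catsper4, Catsperb and Catsperg2 are at 0 throughout.

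Markers of male germ cells, the cells known for the channel, were mostly at 0 in all genotypes. Of 14 such genes 10 had 0 counts in every library, the protamines Prm1 and Prm2 and the transition proteins Tnp1 and Tnp2 of sperm chromatin among them, and the 14 summed to 4.11 and 3.48 CPM in UTRmut, 3.23 and 4.2 CPM in het and 3.76 and 3.97 CPM in WT. Most of that came from Dazl, with 27 to 38 counts in each library. The 8 genes of ciliated ependymal cells, which line the ventricles and also carry motile cilia, summed to 13.7 and 12.4 CPM in UTRmut, 11.5 and 12.1 CPM in het and 8.68 and 13.4 CPM in WT. On that list the WT male lay within the range of the carriers and the WT female below it. Whether the cell makeup of the libraries plays a part in the pair's levels was not tested. Only 1 of the 14 germ cell genes and 4 of the 8 ependymal genes had enough reads to be tested. Of the 6 choroid plexus genes 2 were tested, as were all 8 markers of cortical neurons and all 6 of glia. No tested marker of any of these lists passed in any comparison (0 genes, edgeR with Benjamini-Hochberg adjustment), and the untested ones could not pass.

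Across the 6 libraries, Pearson correlations of log2 CPM, given as a description, were highest with Gnai3 for both genes (r = 0.989 for Catspere1 and 0.996 for Catspere2). Gnai3 encodes an inhibitory G protein alpha subunit and had 47.3 and 49.3 CPM in UTRmut, 46.4 and 49.2 CPM in het and 40.7 and 40.5 CPM in WT. Next for Catspere1 came Rtl4, a gene derived from a retrotransposon (0.986), Ccm2, a scaffold of endothelial junctions (0.986), Catspere2 itself (0.985) and the translational repressor Gigyf2 (0.976). For Catspere2 they were Zfp414, a zinc finger gene (0.995), the elongation factor Iws1 (0.989), the Myc antagonist Mxi1 (0.988) and the ubiquitin ligase Pja1 (0.988). All are taken over libraries in which the members were chosen for a gap between carriers and WT, and an r over 0.95 with Catspere1 was found for 26 of 16118 genes. The differences behind them were small: the log2 fold of Gnai3 was 0.25 (SE 0.10) in UTRmut and 0.24 (SE 0.10) in het, that of Gigyf2 0.09 (SE 0.09) and 0.10 (SE 0.09), and that of Zfp414, the largest of these apart from the pair, 0.59 (SE 0.24) and 0.57 (SE 0.24). Apart from Catspere2, none of these genes lies on chromosome 1 within 1 Mb of the pair, and none of the 8 outside the pair passed.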

How the data were processed

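The authors deposited 1 table of whole-number read counts, with a row for each Ensembl gene and a column for each library, neither scaled nor pooled. HTSeq 0.6.0, HISAT2, Trimmomatic 0.39 and GATK 4.2.3.0 are named in the submitters' processing notes, as is build GRCm38, without saying what each did. The sources used here give no strand setting, read length or annotation release. Symbols, classes and positions came from GENCODE M21 (GRCm38), which matched 55227 of 55487 identifiers, and sequences from its transcripts and the RefSeq GRCm38 promoter table.

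Genes were filtered with filterByExpr (minimum count 10, minimum total 15), scaled by TMM and tested with edgeR 4.0.16 (R 4.3.3) by the quasi-likelihood F test with robust estimation on all 6 libraries. The models held genotype (3 residual degrees of freedom), or genotype and sex (2), with Benjamini-Hochberg adjustment over 16119 genes and a threshold of 0.05. SE is the absolute log2 fold over the square root of F. Binomial intervals are Clopper-Pearson (SciPy 1.17.1), transcripts were aligned with Biopython 1.88, and the fits were checked on simulated counts. Since the reads carry no molecular identifiers, floors and intervals reflect counting error alone.

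The members, gene lists and tests were chosen with earlier results of these data known. Genes were named by a rule: the pair, Mmp9, the 3 tested neighbours nearest on each side, the 3 neighbours of smallest p in each comparison with WT, CatSper genes with at least 10 counts, the 5 genes most correlated with each member (log2 CPM, prior count 2), and genes at 0 in 1 genotype only. One gene that the rule names is not reported here. Dazl, Ttr, the genes at or near 0 in the lists and those inside Catspere2 were named outside it after their values were seen. Alternatives were RLE size factors, DESeq2 1.42.0, no filter, sex as a replicate block, other windows, other minimum counts and leaving out each library.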

Additional observations from a re-analysis of the deposited data

How the results depend on the processing

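The description of the pair against WT kept its direction under every alternative tried (RLE size factors, DESeq2, no filter, replicate block, each library left out). The pair was chosen for this gap in the same libraries, so the direction could hardly turn and nothing is read from it. On the log2 scale, the lower bound for Catspere1 was 4.36 in UTRmut (4.15 to 4.56 with a library left out) and 4.48 in het (3.96 to 4.86), and Catspere2 was at 1.48 in UTRmut (1.33 to 1.62) and 1.48 in het (1.13 to 1.76). In each case the lowest het value came from leaving out the het male. Of the neighbours within 1 Mb, or within 0.5 or 2 Mb, 0 were called in any of the 4 comparisons under any alternative. Females against males stayed negative and did not pass for either gene in any alternative (edgeR and DESeq2, Benjamini-Hochberg adjusted p from 0.0509 to 0.9999). When a library was left out, the log2 folds were -0.89 to -0.40 for Catspere1 and -0.46 to -0.21 for Catspere2.

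UTRmut against het had no stable sign. With a library left out Catspere1 ranged from -0.49 to 0.41, positive at 0.072 without UTRmut replicate 1 and at 0.41 without het replicate 2. Catspere2 ranged from -0.28 to 0.35, positive at 0.14, 0.35 and 0.0053 without UTRmut replicate 1, het replicate 2 and WT replicate 2, at 0.0032 with RLE size factors, 0.0043 with DESeq2, 0.0089 without a filter and 0.014 with the replicate block. None of these passed, and their cause was not tested.

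Counts of calls over all genes moved far more. In UTRmut against WT 1 gene was called, 8 with DESeq2, 27 without a filter, 4 with the replicate block and 2 to 124 with a library left out (124 without the WT male). In het against WT the count was 2, then 13 without a filter and 1 to 41 (41 without the WT male). In UTRmut against het it was 2, then 7 with DESeq2, 28 without a filter, 5 with the replicate block and 0 to 12 (12 without the WT female). In females against males it was 6, then 10 with DESeq2, 92 without a filter and 7 to 198 (198 without the WT female). The cause was not tested. The replicate number is the sex of the animal and pairs no litter or day in the labels. Deviations of same-numbered libraries from their genotype means correlated at 0.196 (UTRmut and het), 0.0802 (UTRmut and WT) and 0.295 (het and WT) across genes.

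Per kilobase of exon, Catspere1 made up 31.5% and 33.2% of the pair in UTRmut and 31.6% and 35.8% in het. With minimum counts of 5 or 20, Catspere1 was again the only gene at 0 in both libraries of 1 genotype and at or above the minimum in the other 4. The gene was chosen for its counts in these libraries, which meet each minimum, so nothing is read from this. With a prior count of 0.5, 5 and 4 of the 5 genes most like Catspere1 and Catspere2 were the same. Depth was not varied: for the 4 CatSper genes at 0 in every library, absence and a level under the 3 counts that a 0 allows cannot be told apart.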
